A study of Rattus norvegicus with 49 samples.

Results

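The livers described here came from male Sprague-Dawley rats, approximately 8 to 10 weeks old, of the groups labelled day 14, the length of the dietary treatment. In one group, Group 4, the powdered feed had been cut by 30% and the rats were fasted overnight before necropsy (5 rats, called restricted below). In the other, Group 1, the rats ate ad libitum and were not fasted (4 rats, called fed below). These 9 arrays are part of a series of 49, with 1 Affymetrix rat genome array for each rat. The other groups of the series ate ad libitum and were fasted overnight (fasted control), or received 15% or 60% less food and were fasted overnight, and every group also had rats labelled day 4. The description of the series has all animals fasted, whereas the sample labels and the study's methods give Group 1 as not fasted, and the labels were followed. The restricted and fed rats therefore differed in food supply and in the overnight fast at once, and between these 2 groups alone the 2 factors cannot be told apart. For this reason the counts of each gene list, apart from most cell type markers, are also given against the fasted control of day 14 (5 rats). That control had the same fast and all of its food. The time of day at which each rat was killed is not given in the sources used here.

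The liver is the organ that stores nutrients after a meal and releases them between meals. After feeding, insulin directs glucose into glycogen, and the transcription factor SREBP-1c turns on the enzymes that make fatty acids, while SREBP-2 does so for cholesterol. During a fast, glucagon and glucocorticoids turn on gluconeogenesis, and the receptor PPARα turns on fatty acid oxidation. The liver also holds a circadian clock, in which BMAL1 with CLOCK or NPAS2 activates the Per, Cry and Nr1d genes, whose products in turn repress BMAL1 and its partners. Meal times can set this clock independently of the light cycle.

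Values are log2 intensities of 14217 genes, and fold changes are given on the log2 scale as restricted over fed, so that 1 is a doubling. A gene was called when its adjusted p from limma was under 0.1. By this rule 3518 genes differed between the restricted and the fed rats, 24.7% of all genes, of which 1735 were higher (12.2%) and 1783 lower (12.5%) in the restricted rats. Most of these differences were small, with a median size of 0.36 among the called genes. At least 2-fold changes were called for 129 genes higher and 141 genes lower, and at least 4-fold changes for 17 and 18. In 2427 of the called genes the ranges of the 2 groups did not overlap, against 2593 of all genes, called or not (18.2%). The median fold change over all genes was -0.01. In bulk tissue, a lower value may come from fewer cells of a type or from less RNA in each cell, and these cannot be told apart.

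The labels give the tissue as liver and the study's methods speak of hepatocytes, so markers of other liver cells were also read. The mean correlation of each restricted rat with the others of its group was between 0.9928 and 0.9936, against 0.9934 to 0.9937 among the fed rats, and correlations between the groups lay between 0.9785 and 0.9883. The summed intensity of 9 hepatocyte markers, albumin and transthyretin among them, was 160000 to 163000 in the restricted rats and 157000 to 161000 in the fed rats. Of these 9 markers 4 were called higher and 1 lower, 55.6% beside 24.7% of all genes. Markers of erythroid cells, B cells and neutrophils had no called member. Of the 6 neutrophil markers 4 had a mean below log2 4.95, under which 25% of all values of the series lie. The summed erythroid markers ranged from 3780 to 9650 in the restricted rats and from 6120 to 8140 in the fed rats. Of 10 Kupffer cell and macrophage markers 1 was lower, of 6 cholangiocyte markers 1 was lower, of 9 endothelial markers 1 was higher, and of 6 pancreatic acinar markers 1 was higher and 1 lower. Below log2 4.95 lay also the means of 3 cholangiocyte and 4 acinar markers. Markers of T and NK cells, stellate cells and the liver zones are given below beside related genes.

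The largest changes joined clock genes with genes of hepatocyte metabolism and signalling (the plot of the 24 largest changes). The deepest fall was that of Poteml2, at 4.17, 4.52, 4.81, 4.70 and 4.86 in the restricted rats, against 9.66, 9.36, 9.61 and 8.98 in the fed rats (log2 fold change -4.79, standard error 0.17, adjusted p = 1.05e-07). All 5 restricted rats lay under log2 4.95, the level below which 25% of all values of the series fall, so this fall was measured down to that floor. Tubb2a, a beta-tubulin, was at 8.93, 8.97, 9.45, 8.89 and 9.05 in the restricted rats, against 12.64, 12.44, 12.32 and 12.35 in the fed rats (log2 fold change -3.38, standard error 0.12, adjusted p = 1.05e-07). Slc6a6, the transporter that brings taurine into cells, was at 6.74, 6.75, 6.46, 6.98 and 6.95 in the restricted rats, against 10.42, 9.82, 10.53 and 10.58 in the fed rats (log2 fold change -3.56, standard error 0.16, adjusted p = 1.03e-06). The groups were far apart in both genes compared with the spread inside either group. Inhba, which encodes the subunit of activin A, was at 5.73, 4.91, 6.97, 7.15 and 5.32 in the restricted rats, against 10.28, 9.73, 9.60 and 10.15 in the fed rats (log2 fold change -3.92, standard error 0.43, adjusted p = 0.000229). The restricted rats differed more among themselves in Inhba than the fed rats did, and all of them were below every fed rat. Among the 12 largest falls were also Slc34a2, a sodium-phosphate cotransporter (-3.22, adjusted p = 6.33e-05), Spin2b, of the spindlin family (-3.27, adjusted p = 0.00132), Rprm, an inhibitor of the cell cycle (-2.79, adjusted p = 2.35e-05), and Adora2b, an adenosine receptor (-2.38, adjusted p = 2.88e-05).

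**Figure D1:**
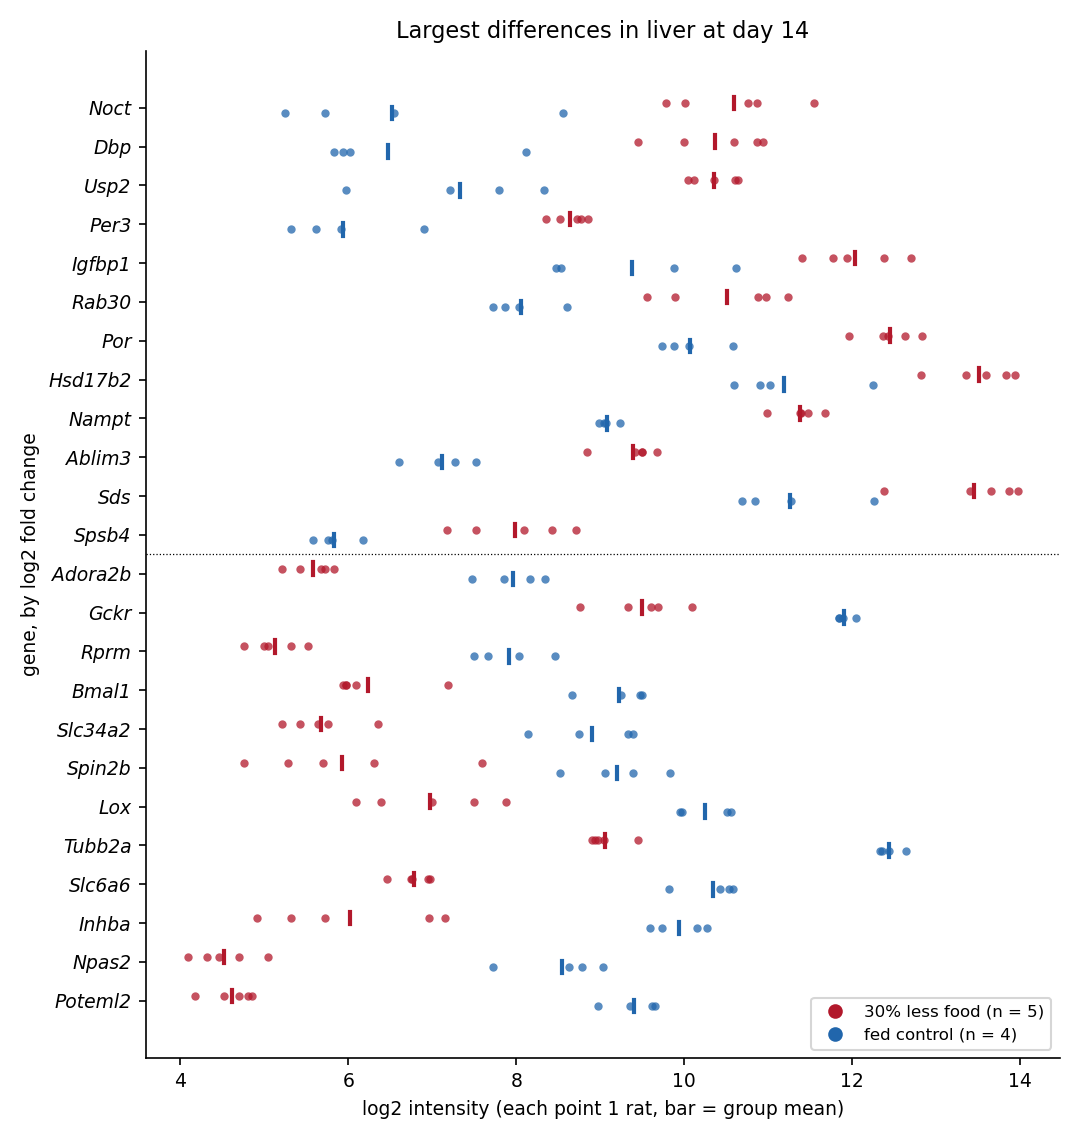
Log2 intensity of the 12 largest rises (upper block) and the 12 largest falls (lower block) at day 14, with 1 point for each rat and a bar for the group mean, 30% less food (n = 5) in red and fed control (n = 4) in blue. Genes whose groups overlap were left out of the 24, so the separation is set by the choice, and 1 fed rat stands near the restricted rats in Noct, Dbp, Hsd17b2 and Sds.

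Among the rises, Noct, which encodes the clock-controlled phosphatase nocturnin, was the largest, at 11.54, 10.76, 9.78, 10.01 and 10.87 in the restricted rats, against 5.73, 6.54, 8.55 and 5.25 in the fed rats (log2 fold change 4.08, standard error 0.59, adjusted p = 0.00115). Fed rat 3 was the highest of its group, also for Sds, Tat, Got1 and Per1. Igfbp1, a binding protein of insulin-like growth factors that insulin represses, was at 12.37, 11.78, 12.69, 11.94 and 11.41 in the restricted rats, against 9.88, 8.53, 10.62 and 8.48 in the fed rats (log2 fold change 2.66, standard error 0.43, adjusted p = 0.00197). Nampt, the rate-limiting enzyme of NAD salvage, was at 11.47, 11.39, 10.98, 11.67 and 11.38 in the restricted rats, against 9.23, 9.07, 8.98 and 9.04 in the fed rats (log2 fold change 2.30, standard error 0.12, adjusted p = 3.38e-06). The fed rats were nearly equal in Nampt, and all restricted rats lay above them. Por, the reductase that passes electrons to the cytochromes P450, rose by 2.38 (adjusted p = 4.67e-05), and Hsd17b2, which inactivates oestradiol and testosterone, by 2.31 (adjusted p = 0.000849). Rab30, a small GTPase (2.45, adjusted p = 0.000801), Ablim3, an actin-binding protein (2.27, adjusted p = 6.33e-05), and Spsb4, a SOCS-box protein (2.16, adjusted p = 0.000589), completed the genes that lie outside the groups described below. Of the 24 largest changes without overlap, 9 genes had several probe sets, and in all 9 every probe set changed in the same direction.

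The largest changes can be placed against the fasted control of day 14, which shares the restricted rats with the comparison above. Against that control, 1814 genes were called, 12.8% of all genes, with 927 higher (6.52%) and 887 lower (6.24%) in the restricted rats. Slc6a6 and Tubb2a were lower than in the fasted control, with log2 fold changes of -2.48 (adjusted p = 1.15e-06) and -1.90 (adjusted p = 0.000119). Nampt was higher by 1.75 (adjusted p = 0.00223) and Hsd17b2 by 3.47 (adjusted p = 0.000142). For Igfbp1 the fasted control stood at 11.48 ± 0.43 (SD, n = 5) and the difference of 0.56 did not pass (adjusted p = 0.216). Sds, the serine dehydratase that feeds amino acid carbon into pyruvate (0.96, adjusted p = 0.115), and Rab30 (0.48, adjusted p = 0.437) did not pass either.

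The clock genes moved in opposite directions according to their role. Among the clock genes 20 could be measured, and against the fed rats 11 of them were higher and 3 lower, with a list median of 0.77 beside -0.01 over all genes. The 3 that fell were Bmal1, Npas2 and Clock, the activators. Bmal1 was at 5.98, 6.09, 7.19, 5.93 and 5.98 in the restricted rats, against 9.25, 8.66, 9.47 and 9.50 in the fed rats (log2 fold change -2.99, standard error 0.26, adjusted p = 7.22e-05). Npas2 was at 4.09, 4.32, 5.04, 4.46 and 4.70 in the restricted rats, against 8.78, 7.72, 8.63 and 9.03 in the fed rats (log2 fold change -4.02, standard error 0.26, adjusted p = 1.17e-05), and Clock was at 8.21, 8.24, 8.53, 8.04 and 8.03 in the restricted rats, against 9.14, 8.92, 9.28 and 9.09 in the fed rats (log2 fold change -0.90, standard error 0.11, adjusted p = 0.000433). No restricted rat overlapped a fed rat in any of them, and restricted rat 3 was the highest of its group in all 3.

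The 11 that rose included known targets of these activators. Dbp, a transcription factor of the PAR bZIP family, was at 10.59, 9.999, 9.45, 10.86 and 10.94 in the restricted rats, against 6.02, 8.12, 5.93 and 5.83 in the fed rats (log2 fold change 3.89, standard error 0.47, adjusted p = 0.000408). Per3 was at 8.72, 8.52, 8.35, 8.85 and 8.77 in the restricted rats, against 5.32, 6.89, 5.62 and 5.91 in the fed rats (log2 fold change 2.71, standard error 0.26, adjusted p = 0.000122) and Per2 was at 10.38, 9.52, 9.74, 10.42 and 9.70 in the restricted rats, against 8.95, 8.28, 7.24 and 7.48 in the fed rats (log2 fold change 1.97, standard error 0.33, adjusted p = 0.00243). Fed rat 2 was the highest fed rat in Dbp and Per3, apart from the other 3 in Dbp. The repressor Per1 rose by 1.31 (adjusted p = 0.00132), Nr1d2 by 1.71 (adjusted p = 0.0032), the PAR bZIP factor Tef by 1.55 (adjusted p = 0.000338), Bhlhe41 by 1.96 (adjusted p = 0.00383) and the protease gene Usp2 by 3.02 (adjusted p = 0.000482). Nr1d1, the partner of Nr1d2 in repressing Bmal1, did not pass, since the fed rats spread from 5.00 to 8.92 and the restricted rats from 7.67 to 9.05 (1.25, adjusted p = 0.198).

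**Figure D2:**
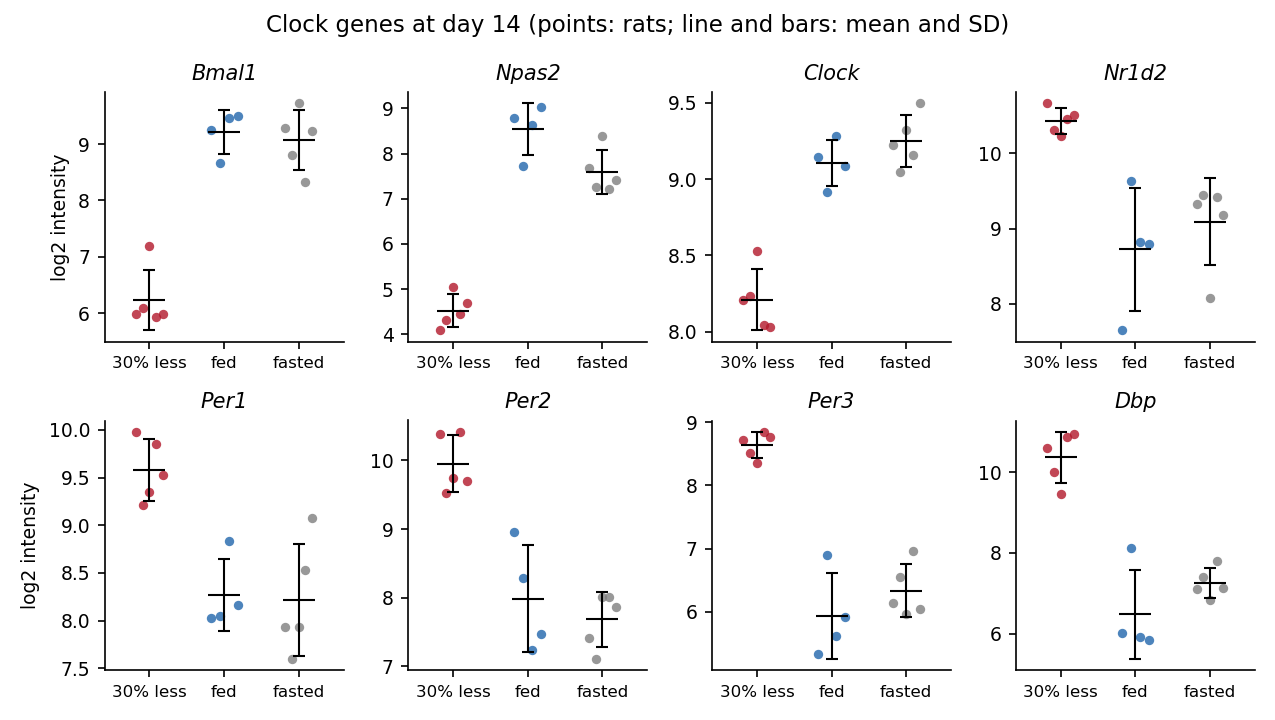
Log2 intensity of 8 clock genes at day 14 in each rat (points), with the mean and SD of the group (black), for 30% less food (red, n = 5), fed control (blue, n = 4) and fasted control (grey, n = 5). The fasted control lies beside the fed control in Bmal1, Clock, Per1, Per2 and Per3, while the restricted rats lie apart from both in all 8 panels.

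The fasted control did not share this pattern. Against it, 12 of the 20 clock genes were higher and 3 lower in the restricted rats. Bmal1 stood at 9.08 ± 0.53 in the fasted control (SD, n = 5), and the restricted rats were lower (log2 fold change -2.84, adjusted p = 0.000119). Dbp stood at 7.26 ± 0.36 in the fasted control (SD, n = 5), and the restricted rats were higher (log2 fold change 3.11, adjusted p = 6.59e-05). Per1, Per2 and Nr1d2 were higher than in the fasted control by 1.37, 2.27 and 1.34 (adjusted p = 0.00594, 0.000114 and 0.0037). The median of the 20 genes, taken in each rat as the difference from the fed mean, was 0.56 to 0.94 in the restricted rats, against -0.03 to 0.05 in the fed rats and -0.20 to 0.15 in the fasted control. With 1 sampling per rat and no stated hour of death, a shift in the phase of the clock and a change in its level cannot be told apart.

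Promoters of 3 of these genes show the letters through which the clock's own factors are known to act. RefSeq promoters (assembly GRCr8) were found for 17 of the 20 clock genes, and the 250 bases before the start site were searched on both strands for the E-box CACGTG, bound by BMAL1 with CLOCK or NPAS2, for the D-box TTANGTAA, bound by DBP and TEF, and for the ROR element TAGGTCA, bound by the ROR and NR1D factors. The ROR element was in 1 of the 17 promoters, that of Bmal1, against 2.26% of 27457 promoters of all genes. The D-box was in 1, that of Per2, against 2.02%, and the E-box was in 3, against 5.79%. A match describes these letters only. The stretches below run 5′ to 3′ on the strand of the gene, with the matched element in capitals. Bmal1 is chr1:176766248-176766327 (plus strand, bases -80 to -1 from the start site), Per2 is chr9:99497153-99497213 (minus strand, -220 to -160) and Bhlhe41 is chr4:180569376-180569435 (minus strand, -80 to -21).
Bmal1: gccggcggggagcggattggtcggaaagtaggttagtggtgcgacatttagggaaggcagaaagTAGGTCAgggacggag
Per2: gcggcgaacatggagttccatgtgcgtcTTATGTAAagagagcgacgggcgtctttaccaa
Bhlhe41: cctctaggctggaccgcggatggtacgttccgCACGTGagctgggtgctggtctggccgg
Bmal1, with the ROR element, fell in the restricted rats, and Per2, with the D-box, rose. Of the 3 genes with an E-box, Bhlhe41 and Tef rose and Bhlhe40 did not pass (0.11, adjusted p = 0.832).

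Most genes of cell division were lower in the restricted rats. Of 31 measured genes of the cell cycle and of DNA replication, 22 were lower and 3 higher than in the fed rats, with a list median of -0.39. Cdkn3, a phosphatase that acts on cyclin-dependent kinases, was at 4.32, 4.70, 4.75, 4.70 and 4.32 in the restricted rats, against 6.41, 6.29, 5.93 and 7.18 in the fed rats (log2 fold change -1.89, standard error 0.21, adjusted p = 0.000272). Cdk1, the kinase that starts mitosis, was at 4.39, 4.81, 4.86, 4.70 and 4.70 in the restricted rats, against 5.98, 5.73, 5.52 and 6.09 in the fed rats (log2 fold change -1.14, standard error 0.13, adjusted p = 0.000255), and Ccnb2, one of its cyclins, was at 5.36, 5.58, 5.81, 5.52 and 5.29 in the restricted rats, against 6.71, 6.57, 6.17 and 7.24 in the fed rats (log2 fold change -1.16, standard error 0.18, adjusted p = 0.00182). The levels of these genes are low in adult liver, and every restricted rat was below log2 4.95 for Cdk1 and Cdkn3. Ube2c, an ubiquitin-conjugating enzyme of the anaphase, fell by 1.04 (adjusted p = 0.000959). Pcna, the sliding clamp of DNA replication and also of repair, did not pass (0.14, adjusted p = 0.229).

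The fasted control lay with the restricted rats and not with the fed rats. Against it, 3 of the 31 genes were higher and 1 was lower, and the list median was 0.01. Cdkn3 stood at 4.83 ± 0.31 and Cdk1 at 4.84 ± 0.50 in the fasted control (SD, n = 5 each). Neither differed from the restricted rats by the test (-0.27, adjusted p = 0.325, and -0.15, adjusted p = 0.752). For both genes the means of both groups lay under log2 4.95, so background signal limits what this test can show. In each rat, the median difference of the list from the fed mean was -0.47 to -0.39 in the restricted rats, against -0.11 to 0.19 in the fed rats and -0.55 to -0.35 in the fasted control.

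Promoters of mitotic genes are known for CCAAT boxes, bound by NF-Y, and for the CHR element TTTGAA, bound by the DREAM and MuvB complexes. Of the 24 genes of this list with a RefSeq promoter, 16 held CCAAT and 8 held TTTGAA within 250 bases before the start site on either strand, 66.7% and 33.3%, against 34.3% and 16.0% of all promoters. Of the 24 genes 21 were called in either direction, among them 13 of the 16 with CCAAT and all 8 with TTTGAA. Most were thus called with or without either element. Cdkn1b (0.38, adjusted p = 0.0123) and Mcm7 (0.27, adjusted p = 0.0643), both with CCAAT, were higher, and all 8 with TTTGAA were lower. Cdk1 is shown for chr20:19265193-19265292 (plus strand, -100 to -1) and Ccnb2 for chr8:79981689-79981808 (minus strand, -150 to -31), with both elements in capitals. On the opposite strand CCAAT reads ATTGG.
Cdk1: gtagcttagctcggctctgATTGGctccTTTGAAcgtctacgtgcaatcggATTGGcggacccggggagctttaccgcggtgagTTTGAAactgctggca
Ccnb2: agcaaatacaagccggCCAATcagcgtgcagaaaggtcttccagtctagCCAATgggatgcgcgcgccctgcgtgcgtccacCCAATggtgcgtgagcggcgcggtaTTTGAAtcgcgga
Both promoters hold several CCAAT boxes within the stretch and at least 1 CHR element near the start site.

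**Figure D3:**
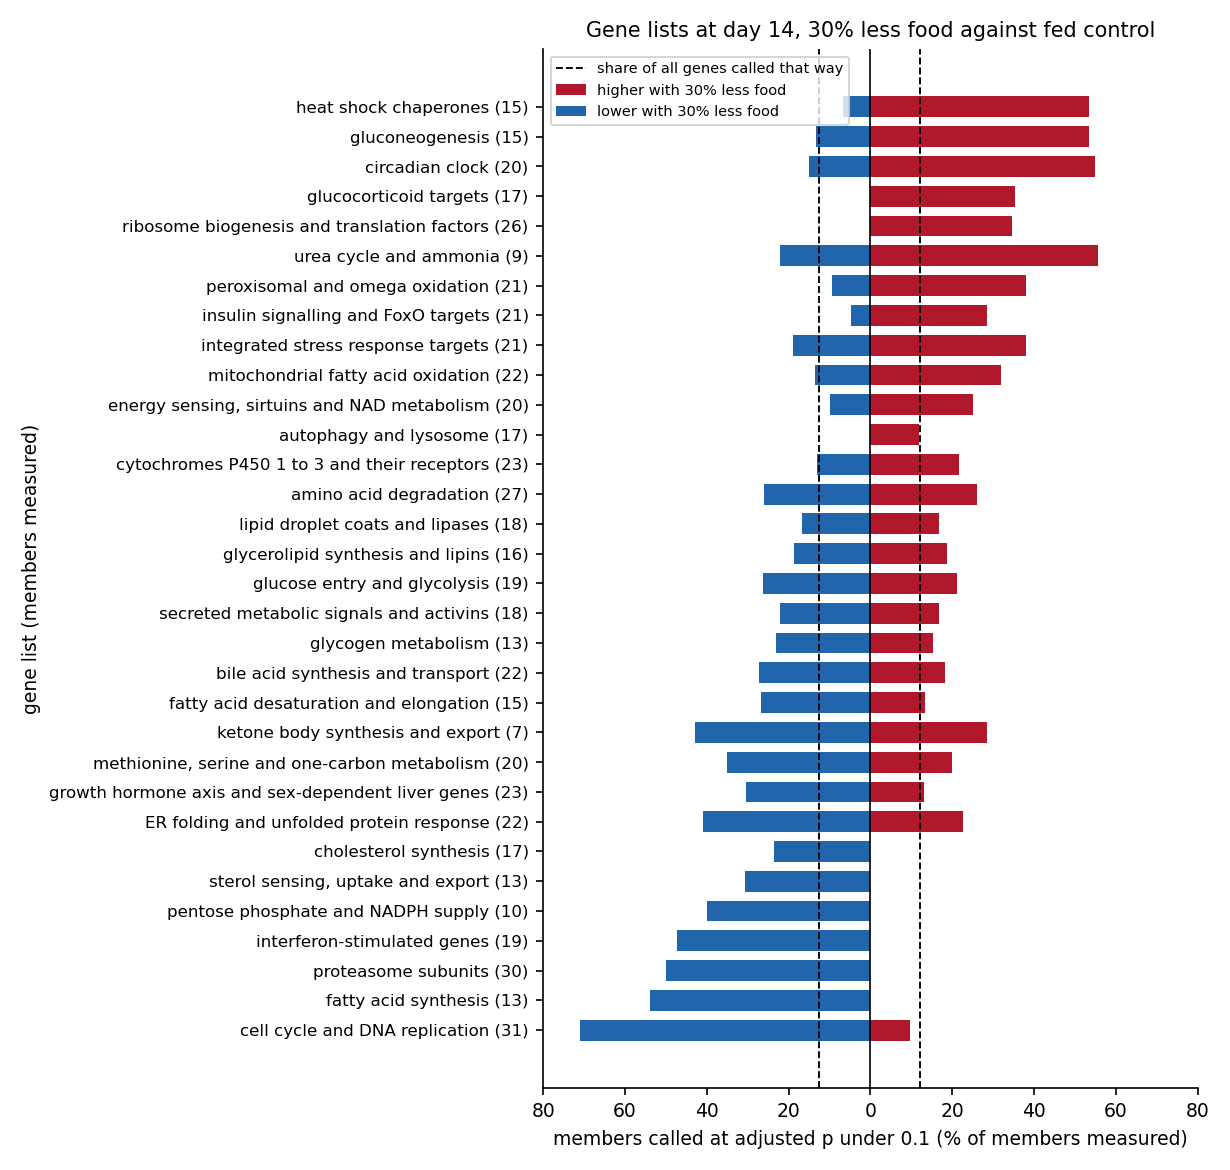
Share of the measured members of 32 gene lists called higher (red, to the right) or lower (blue, to the left) with 30% less food than in the fed control at day 14, with the number measured in brackets. Dashed lines mark the shares of all genes called higher (12.2%) and lower (12.5%), and the lists run from mostly higher at the top to mostly lower at the bottom.

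More than 50% of the genes of fatty acid synthesis were lower than in the fed rats, and more than 50% were higher than in the fasted control. Of 13 measured genes 7 were lower and none was higher (median -0.32). Srebf1, which encodes SREBP-1c, was at 9.99, 9.90, 10.11, 10.999 and 10.997 in the restricted rats, against 11.96, 12.12, 11.85 and 12.06 in the fed rats (log2 fold change -1.60, standard error 0.23, adjusted p = 0.0012). Fasn, the fatty acid synthase, was at 8.72, 9.59, 10.02, 10.22 and 9.97 in the restricted rats, against 11.77, 11.44, 11.10 and 10.81 in the fed rats (log2 fold change -1.57, standard error 0.29, adjusted p = 0.00398), and Mid1ip1, an activator of acetyl-CoA carboxylase, fell by 1.74 (adjusted p = 0.000301). Restricted rat 1 was the lowest of its group in Fasn, and its list median of -1.13 stood apart from -0.37 to -0.21 in the other 4 restricted rats. Against the fasted control 8 of the 13 genes were higher and none lower (median 0.73), Fasn by 1.495 (adjusted p = 0.00257), but Srebf1 stood at 10.24 ± 0.23 there (SD, n = 5) and did not pass (0.16, adjusted p = 0.763). Scd, the stearoyl-CoA desaturase that makes oleate, was at 11.50, 11.71, 12.29, 12.40 and 12.38 in the restricted rats, against 12.34, 11.66, 11.89 and 10.05 in the fed rats, and these groups overlapped (log2 fold change 0.57, standard error 0.40, adjusted p = 0.374). In the fasted control Scd was at 7.88, 8.21, 7.38, 9.01 and 9.17, so that every restricted rat was higher than every rat fasted without restriction (3.72, adjusted p = 6.05e-05).

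In the steps around fatty acid synthesis, the list of desaturases and elongases had 2 members higher and 4 lower of 15, a total of 6 calls that was 3 without fed rat 3 or without fed rat 4. Relative to the fasted control 6 of the 15 were higher and 1 lower. Elovl5, which elongates polyunsaturated fatty acids, fell by 1.39 (adjusted p = 0.000109). Of 10 genes of the pentose phosphate path and NADPH supply 4 were lower and none higher, among them Pgd (-0.63, adjusted p = 0.011) and Tkt (-0.41, adjusted p = 0.0135), both enzymes of that path, and 3 of the 10 were higher than in the fasted control and none lower. In glycerolipid synthesis 3 of 16 genes were higher and 3 lower, against 2 higher and 4 lower relative to the fasted control. Gpam, which attaches the first acyl chain to glycerol phosphate (-1.56, adjusted p = 0.00173), and the glycerol kinase gene Gk (-1.55, adjusted p = 0.000142) fell, whereas the phosphatidate phosphatases Lpin1 (1.57, adjusted p = 0.0185) and Lpin2 (1.384, adjusted p = 0.000197) rose. Among 18 genes of lipid droplets and lipases 3 were higher and 3 lower, among them Pnpla2, the adipose triglyceride lipase, which rose (0.79, adjusted p = 0.00339), and against the fasted control 2 were higher and 5 lower.

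Most genes of cholesterol synthesis were close to the fed level and above the fasted control. Of 17 measured enzymes 4 were lower than in the fed rats and none higher (median -0.28), whereas 13 were higher than in the fasted control and none lower (median 0.89). The 4 lower ones were Dhcr7, the last step of the pathway (-1.30, adjusted p = 0.00761), Mvd (-0.68, adjusted p = 0.0118), Nsdhl (-0.55, adjusted p = 0.0324) and Pmvk (-0.53, adjusted p = 0.0767), of which Pmvk lost its call without any of 5 single rats. Idi1, the isopentenyl diphosphate isomerase, was at 8.27, 10.68, 10.64, 9.51 and 10.17 in the restricted rats, against 10.64, 10.12, 10.44 and 10.10 in the fed rats, with a difference that did not pass (-0.47, adjusted p = 0.507). In the fasted control it was at 7.95, 7.63, 8.60, 7.25 and 6.97 (2.17, adjusted p = 0.00995). Restricted rat 1 was again the lowest of its group in Idi1, Sqle, Cyp51 and Msmo1, with a list median of -1.12 from the fed mean, against -0.50 to 0.35 in the other restricted rats, -0.16 to 0.30 in the fed rats and -1.59 to -0.96 in the fasted control. Insig2, which holds SREBP in the endoplasmic reticulum, fell by 1.60 (adjusted p = 0.00104). It was among 4 lower and no higher genes of 13 for sterol sensing, uptake and export, a count that was 2 without fed rat 1 or without fed rat 3. In that list 3 genes were higher and 2 lower than in the fasted control.

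**Figure D4:**
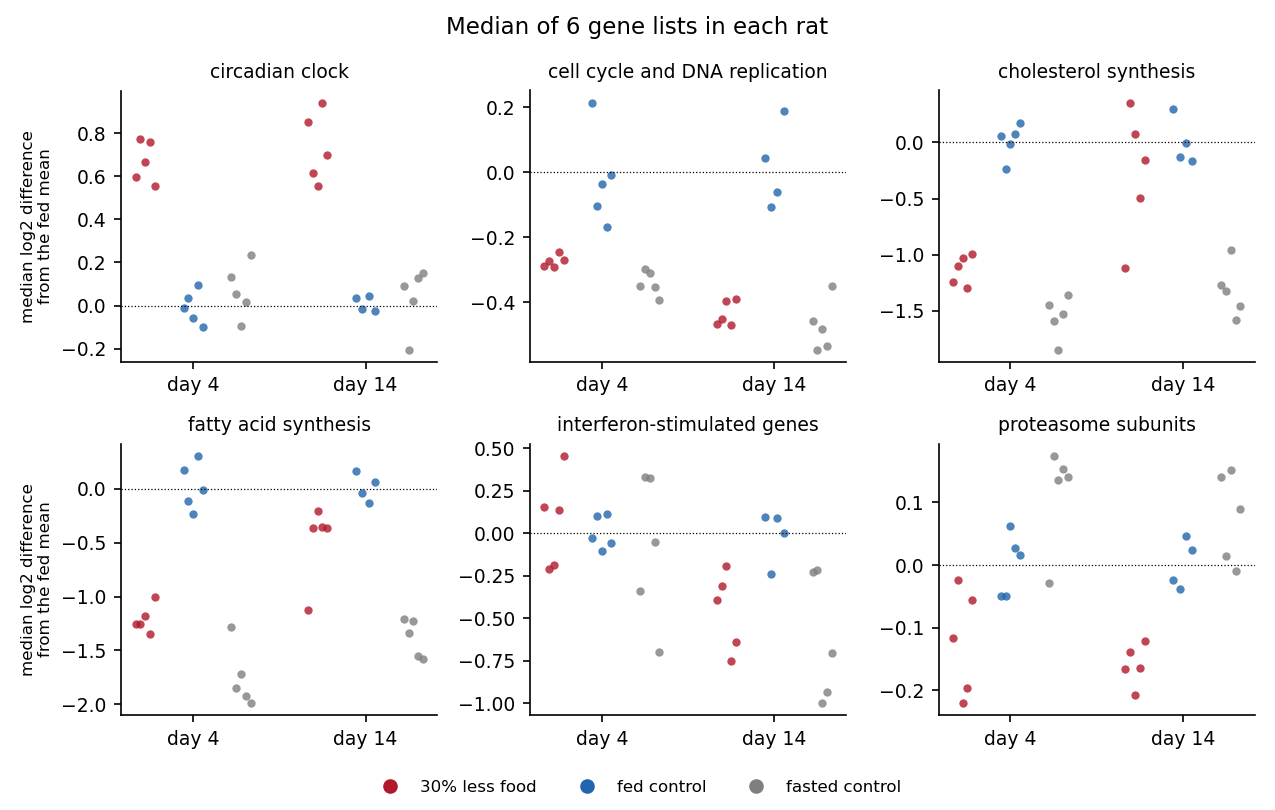
Median over the members of 6 gene lists of the log2 difference from the fed mean of the same day, 1 point for each rat, at day 4 and at day 14, for 30% less food (red), fed control (blue) and fasted control (grey). In cholesterol and fatty acid synthesis the restricted rats stand well below the fed control at day 4. At day 14 they stand closer to it, except for 1 rat, though 7 of 13 fatty acid synthesis genes were still called lower. In the clock list the restricted rats stand apart from both controls on both days.

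A part of the genes of fatty acid oxidation was higher than in the fed rats, among them Cpt1a and Ppara. Of 22 genes of mitochondrial fatty acid oxidation 7 were higher and 3 lower (median 0.11), and of 21 peroxisomal and omega-oxidation genes 8 were higher and 2 lower (median 0.39), of which 6 in all were called without fed rat 2. The other 12 and 11 members did not pass. Cpt1a, which commits fatty acids to mitochondrial oxidation, was at 12.98, 13.04, 13.01, 12.83 and 12.96 in the restricted rats, against 11.11, 12.07, 11.84 and 11.54 in the fed rats (log2 fold change 1.33, standard error 0.16, adjusted p = 0.000395). Ppara itself rose by 1.27 (adjusted p = 0.000362), its coactivator Ppargc1a by 1.80 (adjusted p = 0.00121) and Slc22a5, the carnitine transporter, by 1.07 (adjusted p = 0.00434). Ech1, an auxiliary enzyme for unsaturated fatty acids, rose by 1.09 (adjusted p = 0.00384) and Acot4, a peroxisomal thioesterase, by 1.24 (adjusted p = 0.0178). Crot, which makes medium-chain carnitine esters in the peroxisome, went the other way at 10.35, 10.55, 10.70, 9.55 and 10.81 in the restricted rats, against 12.36, 12.08, 11.76 and 11.96 in the fed rats (log2 fold change -1.65, standard error 0.23, adjusted p = 0.000862).

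Against the fasted control most calls on the same lists were lower. Of the 22 mitochondrial genes 3 were higher and 12 lower, and of the 21 peroxisomal genes none was higher and 7 were lower. Cpt1a stood at 12.98 ± 0.13 in the fasted control (SD, n = 5) beside 12.96 ± 0.08 in the restricted rats (SD, n = 5), and the difference did not pass (adjusted p = 0.936). Ech1 was lower than in the fasted control (-0.79, adjusted p = 0.0158). Among 7 genes of ketone body synthesis and export 2 were higher and 3 lower than in the fed rats, and 1 was higher and 5 lower than in the fasted control. Bdh1 and the lactate and ketone transporter Slc16a1 fell by 0.68 and 1.30 (adjusted p = 0.00558 and 0.000765), and Bdh2 rose by 1.01 (adjusted p = 0.000862).

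Carbohydrate genes were called in both directions. Of 15 gluconeogenic genes 8 were higher and 2 lower than in the fed rats (median 0.21), and 3 were higher and 2 lower than in the fasted control (median 0.08). Got1, the cytosolic aspartate aminotransferase, rose by 1.80 (adjusted p = 0.00172), and Sik1, a kinase that restrains the gluconeogenic programme, by 1.05 (adjusted p = 0.00128), while the lactate dehydrogenase gene Ldha fell by 0.80 (adjusted p = 0.000155). Pck1, the enzyme that makes phosphoenolpyruvate, rose by 0.24 (adjusted p = 0.0508) and lost its call without restricted rat 1 (log2 fold change 0.24) or fed rat 4 (0.17). In glucose entry and glycolysis 4 of 19 genes were higher and 5 lower, with 4 higher and 1 lower against the fasted control. Gckr, the protein that holds glucokinase in the nucleus, was at 8.76, 9.32, 9.68, 9.60 and 10.10 in the restricted rats, against 11.85, 11.89, 11.84 and 12.04 in the fed rats (log2 fold change -2.41, standard error 0.21, adjusted p = 6.73e-05), a separation wider than the range of either group. Slc2a2, the glucose transporter of hepatocytes, rose by 0.65 (adjusted p = 0.000663) and Pfkfb1 by 1.22 (adjusted p = 0.00136). In glycogen metabolism 2 of 13 genes were higher and 3 lower (3 and 1 against the fasted control), with falls in the phosphorylase Pygl (-1.02, adjusted p = 0.00172) and the phosphatase subunit Ppp1r3b (-1.08, adjusted p = 0.00202) and a rise in Ugp2, the UDP-glucose pyrophosphorylase (0.97, adjusted p = 0.000754).

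Amino acid genes were also split. Of 27 genes of amino acid degradation 7 were higher and 7 lower, and against the fasted control 4 were higher and 5 lower. Sds was at 13.97, 13.65, 12.38, 13.39 and 13.87 in the restricted rats, against 10.68, 11.27, 12.26 and 10.84 in the fed rats (log2 fold change 2.19, standard error 0.37, adjusted p = 0.00242), with the lowest restricted rat only just above the highest fed rat. The tyrosine aminotransferase gene Tat rose by 1.47 (adjusted p = 0.00386), whereas Kynu, the kynureninase of tryptophan breakdown, was at 9.79, 10.39, 10.77, 9.92 and 10.87 in the restricted rats, against 12.28, 12.58, 12.49 and 12.60 in the fed rats (log2 fold change -2.14, standard error 0.21, adjusted p = 0.000138). In the fasted control Kynu stood at 12.51 ± 0.08 (SD, n = 5), near the fed rats and away from the restricted rats (-2.17, adjusted p = 6.05e-05). Of 9 genes of the urea cycle and ammonia 5 were higher and 2 lower, 7 calls that became 4 without restricted rat 1, fed rat 3 or fed rat 4, and 1 was higher and 1 lower against the fasted control. Asl, the argininosuccinate lyase, rose by 1.01 (adjusted p = 0.0006). In methionine, serine and one-carbon metabolism 4 of 20 genes were higher and 7 lower, with 5 higher and 2 lower against the fasted control. Bhmt, which remethylates homocysteine (-1.33, adjusted p = 0.000625), Cth, which makes cysteine (-1.20, adjusted p = 0.000174), and Shmt2, the mitochondrial serine hydroxymethyltransferase (-0.69, adjusted p = 0.00214), all fell. Among 9 markers of periportal hepatocytes, the zone in which ammonia is cleared and glucose made, 5 were higher and 2 lower. Against the fasted control 1 of the 9 was higher and 1 lower. Their summed intensity was 62600 to 77700 in the restricted rats, against 51300 to 60000 in the fed rats, and several of them, such as Sds and Pck1, belong to the lists above. Of 8 markers of pericentral hepatocytes, the other zone measured, 2 were higher and 1 lower than in the fed rats. None of the 8 was higher and 2 were lower than in the fasted control. The summed pericentral intensity was 34400 to 42900 in the restricted rats and 36500 to 38800 in the fed rats. The part of liver zones in these results was not tested.

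Among hormone-responsive genes, 6 of 17 glucocorticoid targets were higher and none lower than in the fed rats (median 0.30), and 5 were higher and none lower than in the fasted control (median 0.33). Mt2A, a metallothionein, was at 14.16, 13.93, 14.05, 14.17 and 14.16 in the restricted rats, against 11.82, 13.08, 12.24 and 13.25 in the fed rats (log2 fold change 1.495, standard error 0.25, adjusted p = 0.00237). Fkbp5, which buffers the glucocorticoid receptor, was at 9.02, 8.88, 8.35, 8.06 and 7.40 in the restricted rats, against 6.87, 6.89, 7.41 and 7.15 in the fed rats, and these groups overlapped by the lowest restricted rat alone (log2 fold change 1.26, standard error 0.29, adjusted p = 0.0116). Of 21 genes of insulin signalling and FoxO targets 6 were higher and 1 lower (median 0.16), and against the fasted control 2 were higher and none lower. Besides Igfbp1, Igfbp2 rose by 2.02 (adjusted p = 0.00756), the insulin receptor substrate Irs2 by 1.58 (adjusted p = 0.000647) and Klf15, a transcription factor of amino acid and lipid metabolism, by 1.36 (adjusted p = 0.000989). The secreted signals gave 3 higher and 4 lower of 18, and none higher and 4 lower against the fasted control. Fgf21, a hormone that PPARα induces in a fast, did not pass, at 6.43, 6.93, 7.52, 6.82 and 6.49 in the restricted rats, against 6.83, 7.62, 6.44 and 6.84 in the fed rats (-0.10, adjusted p = 0.845).

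On the growth hormone axis 3 of 23 genes were higher and 7 lower, 10 calls that became 6 without fed rat 1, fed rat 2 or fed rat 3. Of the 23 genes 4 were higher and 4 lower than in the fasted control. Socs2, a target of growth hormone that limits its signal, was at 9.36, 8.80, 8.38, 9.37 and 9.33 in the restricted rats, against 10.02, 10.27, 9.96 and 11.27 in the fed rats (log2 fold change -1.33, standard error 0.29, adjusted p = 0.00887). Cux2, a repressor known for its higher expression in the liver of female rodents, was at 5.88, 6.92, 7.69, 6.15 and 6.17 in the restricted rats, against 4.75, 5.09, 4.86 and 5.43 in the fed rats (log2 fold change 1.53, standard error 0.32, adjusted p = 0.00822). No restricted male overlapped a fed male in either gene. Igf1, the main product of growth hormone action in liver, and the male cytochrome gene Cyp2c11 did not pass (-0.14, adjusted p = 0.139 and -0.07, adjusted p = 0.542). Cyp2c12 and A1bg, sex-dependent genes of the same list, did not pass either (0.15, adjusted p = 0.879 and -0.37, adjusted p = 0.548). Besides Socs2, the called falls of the list were Stat5b (-1.02, adjusted p = 7.43e-05), Stat5a (-0.56, adjusted p = 0.0016) and Hsd3b5 (-0.38, adjusted p = 0.00384). Smaller called falls were those of Cyp2a2 (-0.31, adjusted p = 0.0547), Mup5 (-0.26, adjusted p = 0.0832) and Cyp2c13 (-0.195, adjusted p = 0.0673). These falls, Cyp2c12 and A1bg were added after their values were seen.

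More than 50% of the heat shock genes were higher than in the fed rats, and genes of folding in the endoplasmic reticulum were called in both directions. Of 15 heat shock chaperones and their regulators 8 were higher and 1 lower (median 0.28), and against the fasted control 4 were higher and 1 lower (median 0.04). Hspa1a, the inducible HSP70, was at 9.34, 8.53, 8.87, 8.47 and 7.29 in the restricted rats, against 6.60, 6.77, 6.73 and 6.69 in the fed rats (log2 fold change 1.80, standard error 0.32, adjusted p = 0.00308), and Dnajb1, its co-chaperone, was at 10.37, 10.19, 10.41, 10.20 and 10.07 in the restricted rats, against 9.03, 9.38, 9.37 and 9.62 in the fed rats (log2 fold change 0.90, standard error 0.12, adjusted p = 0.000557). Hspb1, a small heat shock protein, rose by 0.87 (adjusted p = 0.03). Of 22 genes of folding in the endoplasmic reticulum 5 were higher and 9 lower than in the fed rats (median -0.17), whereas 6 were higher and none lower than in the fasted control (median 0.17). Against the fed rats there were rises in Herpud1, of the degradation path (1.52, adjusted p = 0.00221), and the co-chaperone Dnajb9 (0.92, adjusted p = 0.0082), and a fall in Creld2 (-0.62, adjusted p = 0.00902). The integrated stress response list had 8 members higher and 4 lower of 21, 12 calls that became 7 without fed rat 1, fed rat 2 or restricted rat 1, and 6 without fed rat 4. The same list had 5 higher and 2 lower against the fasted control. Within the list the stress-induced chromatin protein gene Nupr1 was at 10.87, 10.22, 10.48, 10.999 and 10.44 in the restricted rats, against 8.81, 8.93, 8.45 and 7.89 in the fed rats (log2 fold change 2.08, standard error 0.22, adjusted p = 0.000174), while Atf5 fell by 1.28 (adjusted p = 0.000756).

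Proteasome subunits were called in 1 direction, by small amounts. Of 30 measured subunits 15 were lower, none higher and 15 did not pass against the fed rats (median -0.15), and 24 were lower and none higher than in the fasted control (median -0.25). Psmd14, the deubiquitinase of the lid, was at 9.31, 9.39, 9.28, 9.28 and 9.35 in the restricted rats, against 9.69, 9.63, 9.86 and 9.80 in the fed rats (log2 fold change -0.42, standard error 0.06, adjusted p = 0.00143), and Psma4, of the core ring, fell by 0.38 (adjusted p = 0.00256). In each rat the list median was -0.21 to -0.12 from the fed mean in the restricted rats, against -0.04 to 0.05 in the fed rats and -0.01 to 0.15 in the fasted control. Of 26 ribosome biogenesis and translation factors 9 were higher, none lower and 17 did not pass against the fed rats (median 0.20), while none was higher and 1 was lower than in the fasted control (median 0.03). Polr1b, a subunit of RNA polymerase I, rose by 0.70 (adjusted p = 0.00121) and Gnl3, a nucleolar GTPase, by 0.69 (adjusted p = 0.00437). Of 17 autophagy and lysosome genes 2 were higher and none lower, the mitophagy receptor Bnip3 (1.19, adjusted p = 4.61e-05) and Gabarapl1 (0.73, adjusted p = 0.000133), a count that was 4 without restricted rat 2. Against the fasted control 3 of the 17 were higher and 2 lower.

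Some interferon-stimulated genes were lower at day 14. Of 19 measured genes 9 were lower, none was higher and 10 did not pass (median -0.47). Psmb9, a subunit of the immunoproteasome, was at 9.35, 9.39, 9.37, 9.65 and 9.78 in the restricted rats, against 11.16, 10.45, 10.86 and 11.11 in the fed rats (log2 fold change -1.39, standard error 0.15, adjusted p = 0.0002), and Isg15, an ubiquitin-like modifier, was at 7.67, 8.34, 7.98, 7.65 and 7.63 in the restricted rats, against 9.19, 8.93, 8.73 and 9.08 in the fed rats (log2 fold change -1.13, standard error 0.15, adjusted p = 0.000742). Usp18, which removes Isg15 from proteins, fell by 1.14 (adjusted p = 0.00524), and Mx2, an antiviral GTPase, fell by 1.13 (adjusted p = 0.0111). Irf7, the factor that amplifies the response, did not pass (-0.34, adjusted p = 0.262). Against the fasted control 1 of the 19 was higher and 3 lower, and the fasted rats differed widely among themselves, with medians of the interferon-stimulated genes from -0.998 to -0.21. Of 15 markers of T and NK cells 4 were lower and none higher, a share of 26.7%, near the 24.7% of all genes called. None of the 15 was called against the fasted control. Their summed intensity was 1710 to 2010 in the restricted rats and 1890 to 2170 in the fed rats. Gzma and Nkg7, genes of cytotoxic granules, were among the 4 lower ones (-0.53, adjusted p = 0.00905 and -0.31, adjusted p = 0.0394). The part of these cells in the interferon result was not tested.

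Bile acid genes gave 4 higher and 6 lower of 22, and 5 higher and 3 lower against the fasted control. Cyp7a1, the rate-limiting enzyme of bile acid synthesis, was at 11.74, 12.34, 11.66, 11.98 and 12.29 in the restricted rats, against 10.21, 11.02, 11.46 and 9.65 in the fed rats (log2 fold change 1.42, standard error 0.32, adjusted p = 0.0109), and Cyp27a1, of the alternative path, was at 13.14, 13.12, 13.25, 13.05 and 12.996 in the restricted rats, against 12.38, 12.22, 12.59 and 12.13 in the fed rats (log2 fold change 0.78, standard error 0.10, adjusted p = 0.000421). Slc27a5, which activates bile acids for conjugation, rose by 0.83 (adjusted p = 0.00912), and Abcb4, the phospholipid exporter of the canaliculus, fell by 0.66 (adjusted p = 0.0359). Of 23 cytochromes P450 and their receptors 5 were higher and 3 lower, a total that was 5 without fed rat 1 or fed rat 3, and against the fasted control 3 were higher and 1 lower. Nr1i2, the xenobiotic receptor PXR, rose by 1.01 (adjusted p = 0.000239) and Cyp2c22 fell by 0.50 (adjusted p = 0.00868). Among 20 genes of energy sensing and NAD metabolism 5 were higher and 2 lower, or 4 in all without fed rat 4, and 2 were higher and 2 lower against the fasted control. There were rises in Nnmt, which methylates nicotinamide (0.83, adjusted p = 0.00764), and Prkaa2, a catalytic subunit of AMP-activated kinase (0.52, adjusted p = 0.00296).

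Of 18 measured genes that the study names, chosen by it in part on these samples and so no independent evidence, 2 were higher and 7 lower, and against the fasted control 4 were higher and 3 lower. Gulo, with which rats finish making vitamin C, was at 11.62, 12.10, 12.46, 12.01 and 12.37 in the restricted rats, against 12.84, 12.98, 12.73 and 12.63 in the fed rats (log2 fold change -0.68, standard error 0.15, adjusted p = 0.0111). Urah, which acts after urate oxidase, rose by 0.26 (adjusted p = 0.00898), and Uox, the urate oxidase, did not pass (0.12, adjusted p = 0.384). Hadha, of mitochondrial fatty acid oxidation, did not pass against the fed rats (0.14, adjusted p = 0.136) and was lower than in the fasted control (-0.47, adjusted p = 0.000561).

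The same contrast was made at day 4 in other rats (5 restricted and 5 fed), which share no array with day 14. There 3222 genes were called, 22.7% of all genes, with 1845 higher (13.0%) and 1377 lower (9.69%). Of the day 14 calls 46.5% were also called in the same direction at day 4, and of the day 4 calls 50.8% at day 14, which is 1636 genes, while 43 were called in opposite directions. Across genes the fold changes of the 2 days had a Pearson correlation of 0.674, given as a description, since genes are not independent replicates. Clock genes already differed at day 4, when Dbp was higher (4.63, adjusted p = 4.45e-07) and Bmal1 lower (-2.92, adjusted p = 6.50e-06). Slc6a6, Tubb2a and Inhba were also lower at day 4, with log2 fold changes of -3.09, -3.09 and -3.36 (adjusted p = 2.06e-05, 1.20e-07 and 5.03e-07).

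**Figure D5:**
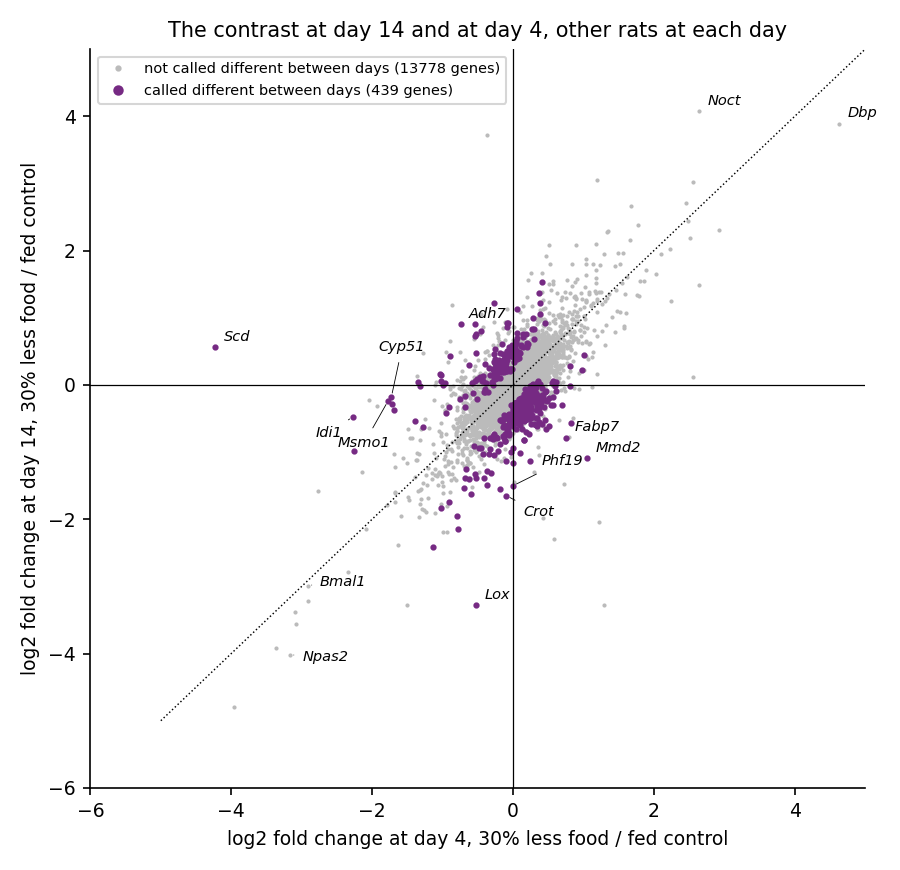
Log2 fold change of 30% less food over fed control at day 14 (vertical axis) against day 4 (horizontal axis) for each of 14217 genes, with the 439 genes whose difference between days was called in purple and the line of equal change dotted. Scd stands alone at the left, called lower at day 4 (-4.22) and not at day 14 (0.57), and Lox is the lowest purple point, called lower at day 14 (-3.27) and not at day 4 (-0.52).

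The difference between the days was tested directly as an interaction, which called 439 genes, 3.09% of all, with 152 more positive at day 14 (1.07%) and 287 more negative (2.02%). This count rested in part on single rats. It was 251 and 222 without restricted rats 1 and 2 of day 14, 186, 270 and 248 without restricted rats 1, 2 and 5 of day 4, 208 and 180 without fed rats 3 and 4 of day 14, and 241, 271, 206 and 192 without fed rats 1, 2, 3 and 5 of day 4. Genes of lipid synthesis were among the positive ones. At day 4 all 17 cholesterol synthesis genes and 12 of 13 fatty acid synthesis genes were lower than in the fed rats, with medians of -1.05 and -0.96, and 7 and 4 of them had a called interaction. Scd was at 6.88, 7.07, 8.93, 8.54 and 8.03 in the restricted rats of day 4, against 12.97, 12.60, 11.82, 11.71 and 11.48 in the fed rats of day 4, a change of -4.22 (adjusted p = 7.08e-05). Its interaction was 4.79 (standard error 0.62, adjusted p = 0.00206), the most positive of all called genes. Idi1 had 1.80 (adjusted p = 0.0747), Cyp51 1.55 (adjusted p = 0.0422), Msmo1 1.53 (adjusted p = 0.0834) and the alcohol dehydrogenase gene Adh7 1.65 (adjusted p = 0.0316). The 3 cholesterol enzymes were thus well below the fed level at day 4 and close to it at day 14, while Adh7 was above the fed rats at day 14 (0.91) and below them at day 4 (-0.74).

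Among the most negative interactions, the widest was that of Lox. This gene, for the enzyme that crosslinks collagen, was at 6.09, 6.39, 7.0, 7.50 and 7.88 in the restricted rats, against 10.51, 10.56, 9.97 and 9.95 in the fed rats at day 14 (log2 fold change -3.27, standard error 0.33, adjusted p = 0.000155), and at 8.52, 9.01, 7.73, 9.39 and 9.98 in the restricted rats of day 4, against 9.14, 10.41, 9.33, 8.89 and 9.46 in the fed rats of day 4 (-0.52, adjusted p = 0.405). Its interaction was -2.76 (standard error 0.56, adjusted p = 0.0316). Of the 15 markers of stellate cells and fibroblasts, to which Lox belongs, Pdgfrb and Acta2 were also lower and Rgs5 higher, and the other 11 did not pass. The summed intensity of the 14 markers without Lox was 5900 to 7760 in the restricted rats and 7040 to 8360 in the fed rats, and the defining markers Des, Lrat and Reln had log2 fold changes of 0.003, -0.10 and 0.04 (adjusted p = 0.99, 0.525 and 0.859). The part of these cells in the fall of Lox was not tested. The other most negative interactions were those of Mmd2 (-2.14, adjusted p = 0.0422), Crot (-1.55, adjusted p = 0.0416), Fabp7, a fatty acid binding protein (-1.54, adjusted p = 0.0316), and Phf19, a Polycomb partner (-1.499, adjusted p = 0.0915). Among the interferon-stimulated genes, 2 of 19 were higher and 2 lower at day 4, and Isg15 and Usp18 had called interactions of -1.03 and -1.39 (adjusted p = 0.0679 and 0.0894). Of 10 Kupffer cell and macrophage markers 7 were higher at day 4 (70.0%, beside 22.7% of all genes called), and 3 had a called negative interaction. Of 15 T and NK cell markers 4 were higher at day 4 (26.7%), and 3 had a called negative interaction. The part of these cells in the day differences was not tested.

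Few genes separated the 30% restriction from the other degrees of restriction at day 14, in comparisons that share the restricted rats with those above. Against 15% less food 7 genes were called, 0.0492% of all, and 1162 had an unadjusted p under 0.05. Ugt2b34l1 (1.20), Palld (0.73), Glyatl2 (0.62) and Enpp3 (0.40) were higher with 30% less food, and St6galnac4 (-0.76), Grtp1 (-0.67) and Cela1 (-0.61) were lower. These 7 were named after their values were seen. The count was 42 without restricted rat 5, 2 without restricted rat 1, 2 or 3, 3 without rat 4 of the 15% group, and 1 without rat 2 or 3 of that group.

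Against 60% less food 52 genes were called, 0.366% of all, and 1836 had an unadjusted p under 0.05. Single rats decided this count, which was 113 without restricted rat 1, 4 without restricted rat 3, 3 without restricted rat 2 or 5, and 0 without restricted rat 4. In the 60% group it was 302 without rat 3, 33 without rat 4, 32 without rat 2, 9 without rat 5 and 0 without rat 1. Scd was higher with 30% than with 60% less food (2.58, adjusted p = 0.0338), at 12.05 ± 0.42 and 9.47 ± 0.88 (SD, n = 5 each). Lox was also higher with 30% less food (1.65, adjusted p = 0.0977), at 6.97 ± 0.74 and 5.32 ± 0.49 (SD, n = 5 each). Genes that missed the threshold in these comparisons are not shown to be alike.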

How the data were processed

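RNA of 49 rat livers was hybridised to Affymetrix rat genome arrays, 1 array for each rat, so that the number of arrays limits the precision. Per the labels and the methods, the authors made the deposited intensities by Robust Multi-Array Average with affy 1.38.1 in R 3.0.1. This includes quantile normalisation between arrays, which sets aside any change shared by all genes. The deposited values of 31042 probe sets are linear and rounded, and log2 was taken. Of these probe sets 20826 had 1 gene symbol, 436 several and 9780 none, and the brightest probe set stood for each of 14217 genes. The 9 arrays of the comparison were fitted with limma 3.58.1 in R 4.3.3, 2-sided, with Benjamini-Hochberg adjustment over all genes and a call at adjusted p under 0.1, and the other contrasts likewise on their own groups. The script was tested on simulated data. Replicates are separate rats.

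The genes named are the 12 largest rises and falls among called genes without overlap, the called members of each list with the largest changes, the 5 largest day differences in each direction, and the genes the study names. The comparison, the lists and the markers were chosen with earlier results of these data known. Nr1d1, Cry1, Fgf21, Igf1, Pcna, Pck1, Sqle, Irf7, Gzma, Nkg7, Cyp2c11, Clock, Per1, Per2, Nr1d2, Tef, Bhlhe41, Ccnb2, Cdk1, Des, Lrat, Reln, Pdgfrb, Acta2, Rgs5, RT1-A, RT1-N2, Zfp354a and the genes of the last lists under other observations were added after their values were seen. Alternatives changed the threshold, a minimum fold, the samples in the fit, a filter on dim genes, the probe set summary, the normalisation, array weights, the empirical Bayes step and each rat in turn. Promoters came from RefSeq (GRCr8), with 142 of 174 named genes matched by symbol.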

Additional observations from a re-analysis of the deposited data

Results flagged for a closer look

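Among 174 named genes in the 2 groups of day 14, 16 of 348 gene and group pairs held a rat that stood apart from the rest of its group (4.6%), where chance gives about 1 in 20. Restricted rat 3 was the highest of its group for Bmal1 (7.19, the others at or below 6.09), Abcb4 (10.1), and Tubb2a (9.45), and the lowest for Ugp2 (12.97). Restricted rat 1 was the lowest for Mvd (7.23, the others at or above 7.92) and Atf5 (10.53). Restricted rat 4 was the highest for Dnajb9 (11.26) and Elovl5 (12.36), and restricted rat 5 the lowest for Lpin1 (10.52). Among the fed rats, rat 2 was the highest for Dbp (8.12, the others at or below 6.02) and the lowest for Irf7 (8.73), rat 3 the highest for Cebpb (11.79) and Per1 (8.84), rat 1 the highest for Elovl6 (7.28), and rat 4 the highest for Hadha (11.74) and the lowest for Mmd2 (7.79).

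For 30 named genes the contrast of restricted and fed rats differed between the days by the interaction test, given as day 14 minus day 4. Enzymes of lipid synthesis were more positive at day 14, with Scd at 4.79, Idi1 at 1.80, Cyp51 at 1.55, Msmo1 at 1.535 and Pmvk at 0.865. So were the NADPH and sugar enzymes Pfkfb1 (1.497), Pgd (0.655) and Tkt (0.54), the alcohol dehydrogenase gene Adh7 (1.65), the clock repressor Cry1 (1.29) and the kinase subunit Prkaa2 (0.50). More negative at day 14 were Lox (-2.76), Mmd2 (-2.14), Crot (-1.55), Fabp7 (-1.54), Phf19 (-1.499), the glucose and glycerol genes Gckr (-1.28), Gk (-1.37) and Ldha (-0.52), and the amino acid gene Kynu (-1.36). The interferon-stimulated genes Usp18 (-1.39) and Isg15 (-1.03) and the T and NK cell markers Gzma (-0.98) and Nkg7 (-0.515) were also more negative. The rest were the transporter Abcb4 (-1.13), Atf5 (-0.92), the lipoprotein receptor Scarb1 (-0.865), Elovl5 (-0.77), the ketone body enzyme Bdh1 (-0.59) and the aspartate carrier Slc25a13 (-0.30).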

How the results depend on the processing

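None of the 154 named genes called against the fed rats turned its direction under any alternative tried. For comparisons and 33 lists the number of calls was followed. The lists under other observations and the list counts against the fasted control were not rerun. Genes called against the fed rats numbered 2730 to 3492 without any 1 rat, and 769 when a change of at least 1.5-fold was also asked. Against the fasted control the count was 1345 to 1641 without any 1 rat, 1195 at adjusted p under 0.05 and 440 with at least 1.5-fold. At day 4 it was 2538 to 3252 without any 1 rat and 545 with at least 1.5-fold. The difference between days called 180 to 629 genes without any 1 rat, 138 at adjusted p under 0.05 and 161 with at least 1.5-fold. Against 15% less food the 7 calls became 1 to 42 without any 1 rat, 4 at adjusted p under 0.05 or with the mean of all probe sets, 2 in a fit of all groups, 13 with the robust trended empirical Bayes step and 12 with array weights. Against 60% less food the 52 calls became 0 to 302 without any 1 rat, 6 at adjusted p under 0.05, 22 with at least 1.5-fold, 29 with the mean of all probe sets, 784 in a fit of all groups and 211 with array weights. The cause of these moves was not tested, except that stricter thresholds call fewer genes by construction.

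Of 2957 values of the 174 named genes under the alternatives, 2778 were counted as unchanged, 170 lost the call and 9 gained it. A change of sign in a named gene not called against the fed rats was also counted as unchanged. Of 561 list counts 511 stayed within 1.5 times the count given, and 50 did not, 22 of them under the minimum fold. Genes with intensities near the dim level, such as those of Cdk1, Npas2 and Poteml2, have folds limited by background signal. No paired analysis was possible because the rats of different groups are different animals and their numbers pair nothing.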

Other observations

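Further lists were called in both directions, except oxidative phosphorylation and cytosolic ribosomal proteins, which had few calls. Over all genes 24.7% were called against the fed rats. The share was lower in oxidative phosphorylation (8.82%), cytosolic ribosomal proteins (10.3%), complement and coagulation (11.8%) and acute phase and plasma proteins (16.0%). It was 25.9% in conjugation and antioxidant genes and 30.8% in the citric acid cycle. Immediate early genes had 36.8%, pyruvate dehydrogenase and its kinases 41.7%, and iron and heme handling 60.0%. Of 15 genes of iron and heme handling 4 were higher and 5 lower in the restricted rats than in the fed rats. Alas1, the first enzyme of heme synthesis, rose by 1.09 (adjusted p = 0.0109), while later enzymes fell, Cpox (-0.37, adjusted p = 0.00445), Fech (-0.28, adjusted p = 0.0249) and Alad (-0.29, adjusted p = 0.0508). Hamp, which encodes the iron hormone hepcidin, rose by 0.54 (adjusted p = 0.0276). Of 27 conjugation and antioxidant genes 2 were higher and 5 lower, with rises in Ugt2b1, a glucuronosyltransferase (0.90, adjusted p = 0.00255), and Gclm, of glutathione synthesis (0.55, adjusted p = 0.00234), and falls in Nfe2l2, which encodes the antioxidant regulator NRF2 (-0.78, adjusted p = 0.0139), and Sult1e1, an oestrogen sulfotransferase (-0.65, adjusted p = 0.00178). Of 19 immediate early genes 6 were higher and 1 lower, among them Egr1 (1.18, adjusted p = 0.0577). Among 12 genes of pyruvate dehydrogenase and its kinases 4 were higher and 1 lower. In the citric acid cycle 2 of 13 genes were higher and 2 lower, with citrate synthase, Cs, at a lower level (-0.42, adjusted p = 0.00384). Of 34 oxidative phosphorylation subunits 3 were lower and none higher, and of 29 cytosolic ribosomal proteins 3 were higher and none lower. Acute phase and plasma proteins gave 2 higher and 2 lower of 25, with the rat acute phase protein A2m higher (0.98, adjusted p = 0.0107) and the apolipoprotein Apoa1 lower (-0.36, adjusted p = 0.0112). Complement and coagulation gave 1 higher and 1 lower of 17. Against the fasted control, where 12.8% of all genes were called, iron and heme handling had 2 higher and 3 lower. Conjugation and antioxidant genes had 4 and 3, immediate early genes 2 and 0, and pyruvate dehydrogenase and its kinases 3 and 1. The citric acid cycle had 0 and 1, oxidative phosphorylation 1 and 1, and cytosolic ribosomal proteins 1 and 0. Acute phase and plasma proteins had 0 and 2, as had complement and coagulation.

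Genes of the major histocompatibility complex class I split the restricted rats. RT1-N2 was at 4.52, 9.08, 10.24, 4.46 and 4.46 in the restricted rats, against 10.44, 9.60, 9.42 and 9.83 in the fed rats (-3.27, adjusted p = 0.0818), with restricted rat 3 among the fed rats, restricted rat 2 below all of them, and the other 3 restricted rats below the dim level. RT1-A was at 7.36, 10.18, 11.01, 7.74 and 7.89 in the restricted rats, against 11.17, 10.87, 10.28 and 10.94 in the fed rats (-1.98, adjusted p = 0.0709), with the same 2 restricted rats above the other 3. The call of RT1-N2 was lost without any 1 of 7 rats and that of RT1-A without any 1 of 6 rats. Zfp354a, a zinc finger gene, had a log2 fold change of 3.06, adjusted p = 0.00725, with values of 12.58, 11.88, 11.80, 12.08 and 11.04 in the restricted rats, against 8.35, 8.01, 11.26 and 7.66 in the fed rats, and fed rat 3 lay among the restricted rats.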
